A study of Homo sapiens with 12 samples.

Results

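MDA-MB-231 cells, a triple-negative breast cancer line, were transfected with plasmids for Dicer, and their poly(A) RNA was sequenced in 12 libraries. The groups were Dicer with mutation 1, Dicer with mutation 3, Dicer with mutation 2 and wild-type Dicer, with 3 libraries each. The labels do not say which bases or residues the mutations alter, and no group is labelled as untransfected. The share of cells in each library that took up a plasmid was not measured here. The genes described here separate the 6 libraries of mutations 1 and 3 from the 6 libraries of mutation 2 and wild type. They were chosen from the measured levels themselves. A gene was kept when its lowest level in one set of 6 lay above its highest level in the other set. Levels are in CPM, the count of a gene divided by the library's total count and brought to a common total, scaled between libraries by the TMM method.

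Of 64252 gene IDs in the files, 33223 had a count in at least 1 library and 5781 met this rule. With mutations 1 and 3, 2870 of them were higher and 2911 were lower. A filter on low counts left 15094 genes for testing, and 2662 higher members (17.6% of the genes tested) and 2811 lower members (18.6%) were among them. Because the rule used all 12 libraries, the difference between the 2 sets is given below as a description with no test. Most members differed by a modest amount: the ratio of the mean levels of the sets had a median of 1.95 among higher members and the inverse ratio a median of 1.98 among lower members. The gap between the nearest libraries of the 2 sets was at least 2-fold for 248 higher and 250 lower members, and at least 4-fold for 33 and 25. At the edge of the rule, EIF1B had a lowest level of 32.3 CPM with mutations 1 and 3 and a highest level of 32.3 CPM with mutation 2 and wild type, and was just inside. GLIPR1, whose highest level was 22.9 CPM with mutations 1 and 3 and whose lowest was 22.9 CPM with mutation 2 and wild type, was just inside on the lower side. MTPN, with a lowest level of 279.6 CPM with mutations 1 and 3 and a highest of 279.6 CPM with mutation 2 and wild type, was just outside. ATP10A was just outside on the lower side, with no count in any library of mutations 1 and 3 nor in at least 1 of the other 6.

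Dicer is the nuclease that cuts hairpin precursors into mature microRNAs, the short guides that direct Argonaute proteins to matching messenger RNAs. MicroRNAs lower the stability and translation of many transcripts at once, so a change in Dicer can reach a large share of a transcriptome. Poly(A) RNA sequencing reads the messenger RNAs and polyadenylated long noncoding RNAs, and not the microRNAs.

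Total counts ran from 13507341 to 17078273 per library. DICER1 was counted at 43.5, 42.2 and 45.3 CPM with mutation 1, 39.4, 38.8 and 40.1 CPM with mutation 3, 44.4, 45.7 and 45.7 CPM with mutation 2, and 27.4, 45.2 and 47.4 CPM with wild type. Its levels overlapped between the sets, so DICER1 was not a member. The line's markers VIM, AXL, CD44, CAV1, KRT18 and EGFR were detected in every library, and ESR1, PGR and FOXA1 stayed under 1 CPM. ERBB2 (68.4 to 111.5 CPM), GATA3 (7.71 to 29.97 CPM) and EPCAM (4.59 to 33.3 CPM) were detected in every library. Of 14 markers of other cell types, 3 had no count in any library. Their summed level was 115.2 to 125.5 CPM with mutation 1, 50.4 to 55.0 CPM with mutation 3, 30.8 to 34.1 CPM with mutation 2 and 48.01 to 49.6 CPM with wild type. With mutations 1 and 3 most of it was PDGFRB and COL1A1. With wild type COL1A1 averaged 17.8 CPM, PECAM1 11.7 CPM, PDGFRB 9.10 CPM and GFAP 7.90 CPM. PECAM1, an endothelial marker, averaged 0.61 to 0.78 CPM with each mutation. With mutation 2 COL1A1 averaged 12.8 CPM, GFAP 9.14 CPM and PDGFRB 8.51 CPM. The part of these markers in the results was not tested.

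Wild-type replicate 1 stood apart from the other 2 wild-type libraries. The chi-square per degree of freedom between its counts and theirs was 148 and 141, against 1.26 to 3.51 for every other pair within a group. Mitochondrial genes took 2.08% of its counts, against 7.83% and 7.92% in the other wild-type libraries. They took 3.34% to 3.46% with mutation 1, 8.77% to 9.02% with mutation 3 and 6.39% to 7.67% with mutation 2. The part of this library in the results was not tested beyond leaving it out. Without it, 3210 higher members (21.3%) and 3338 lower members (22.1%) met the rule. With the scaling kept, leaving out a library can only add members, here and in the gene lists below. Whether the libraries of a group were separate cultures is not stated in the labels. The p-values given below therefore reflect no more than the library-to-library spread, which may be technical.

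**Figure D1:**
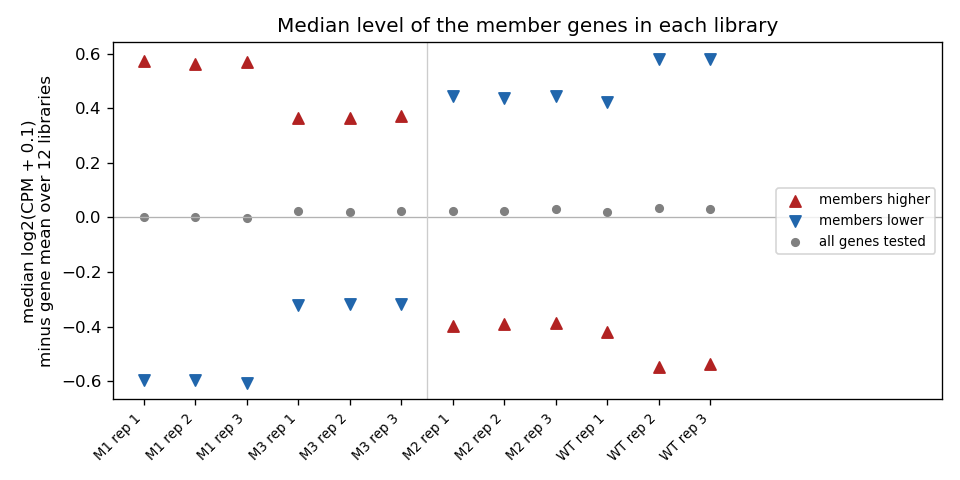
Median log2 level of the member genes that passed the filter in each library, after subtracting each gene's mean over the 12 libraries. Triangles pointing up are the 2662 higher members, triangles pointing down the 2811 lower members and grey points all 15094 genes tested. M1, M3, M2 and WT are mutation 1, mutation 3, mutation 2 and wild type. Mutation 1 lies farther from 0 than mutation 3 for both kinds of member, and wild-type replicate 1 lies nearer to mutation 2 than to the other wild-type libraries.

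Scaling altered how many members were higher and how many lower. TMM factors were 0.912 to 0.919 with mutation 1, 0.972 to 0.978 with mutation 3, 1.05 to 1.06 with mutation 2 and 1.05 to 1.08 with wild type. With library totals alone and no such factor, 1884 higher members (12.5%) and 3601 lower members (23.9%) met the rule, and the share of higher members was 34.3% in place of 48.6%. The median log2 ratio of the set means over all genes tested was -0.17 with library totals and -0.02 with TMM. No member changed sides, and all 1884 genes that were higher with library totals were also higher with TMM.

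The higher members with the largest gaps included PER1 of the circadian clock, the metabolic regulators TXNIP and CREBRF, and the secreted factors VEGFA, AREG and IL24. Only genes averaging 5 CPM or more with mutations 1 and 3 were ranked for this. PER1, which encodes a repressor of the clock (chr17:8140472-8156506 on GRCh38), had the largest gap of these. It was at 390, 389 and 399 CPM with mutation 1, 141, 137 and 136 CPM with mutation 3, 11.4, 12.5 and 11.8 CPM with mutation 2 and 15.3, 12.9 and 12.2 CPM with wild type. In bulk RNA of this kind, more cells that express a gene and more of its RNA per cell cannot be told apart. The ratio of the set means for PER1 was 20.9, and every library of mutation 1 lay above every library of mutation 3.

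TXNIP, an arrestin that restrains glucose uptake, was at 1068, 1108 and 1079 CPM with mutation 1 and 888, 890 and 894 CPM with mutation 3. It was at 168, 169 and 164 CPM with mutation 2 and 148, 50.9 and 47.7 CPM with wild type. Wild-type replicate 1 lay beside mutation 2 for this gene, and the other 2 wild-type libraries lay well below it. FBXO32, a ubiquitin ligase of muscle atrophy, was at 312 to 323 CPM with mutation 1 and 280 to 283 CPM with mutation 3, against 57.6 to 60.5 CPM with mutation 2 and 36.1 to 62.9 CPM with wild type. YPEL2 was at 43.6 to 47.1 CPM with mutation 1 and 28.5 to 32.3 CPM with mutation 3, against 2.59 to 3.18 CPM with mutation 2 and 2.69 to 3.69 CPM with wild type. CREBRF, a regulator of cellular energy stores, averaged 79.5 ± 1.9 CPM with mutation 1 and 51.6 ± 1.0 CPM with mutation 3, against 9.51 ± 0.32 CPM with mutation 2 and 11.01 ± 1.3 CPM with wild type (SD, n = 3 each). PPARGC1A, a coactivator of mitochondrial biogenesis, was at 14.7 to 17.9 CPM in the 6 libraries of mutations 1 and 3 and at 1.38 to 3.18 CPM in the other 6.

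Secreted factors were also among them. VEGFA, the main angiogenic growth factor, was at 1035, 1024 and 1053 CPM with mutation 1 and 1152, 1142 and 1131 CPM with mutation 3. It was at 226, 235 and 230 CPM with mutation 2 and 237, 137 and 134 CPM with wild type. AREG, a ligand of the EGF receptor, averaged 597 ± 10 CPM with mutation 1 and 472 ± 3.8 CPM with mutation 3, against 33.2 ± 2.5 CPM with mutation 2 and 55.3 ± 46 CPM with wild type (SD, n = 3 each). The wide wild-type spread came from replicate 1, at 109 CPM against 28.0 and 29.2 CPM in the others. IL24, a cytokine of the interleukin 10 family, was at 46.6 to 48.5 CPM with mutation 1 and higher, at 87.1 to 90.3 CPM, with mutation 3, against 3.49 to 9.48 CPM in the other 6 libraries. SDCBP2, GSDMB, NEURL1, AMN1, CHAD and the noncoding FER1L4 completed the 15 largest gaps. AMN1 shares 40.7% of its exonic bases with genes on the other strand, and the counting did not use strand.

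Lower members with the largest gaps included cell cycle, interferon-stimulated and amino acid stress genes. TIGAR, a phosphatase that lowers glycolytic flux, was at 0.281, 0.403 and 0.319 CPM with mutation 1 and 0.939, 0.784 and 0.519 CPM with mutation 3. It was at 10.8, 10.1 and 10.2 CPM with mutation 2 and 13.1, 13.97 and 13.3 CPM with wild type. The ratio of the set means was 22.0 towards mutation 2 and wild type, the groups did not overlap, and 45.6% of its exonic bases lie in exons of another gene, so its level is uncertain. PRMT6, an arginine methyltransferase that acts on histones, averaged 0.450 ± 0.12 CPM with mutation 1 and 1.71 ± 0.55 CPM with mutation 3, against 17.1 ± 0.42 CPM with mutation 2 and 19.1 ± 0.95 CPM with wild type (SD, n = 3 each). KYNU, an enzyme of tryptophan breakdown, was at 0 to 0.626 CPM in the 6 libraries of mutations 1 and 3 and at 4.22, 6.54 and 6.90 CPM with mutation 2. With wild type it was at 23.1, 56.6 and 58.4 CPM, so here mutation 2 also lay far below wild type. IRAK3, TMEM156, ZG16B and GPR39 (34.8% of its exonic bases shared) had the same order, with wild type highest on average, while CHAC2, SERPINB8 and FAM111B were at similar levels with mutation 2 and wild type.

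**Figure D2:**
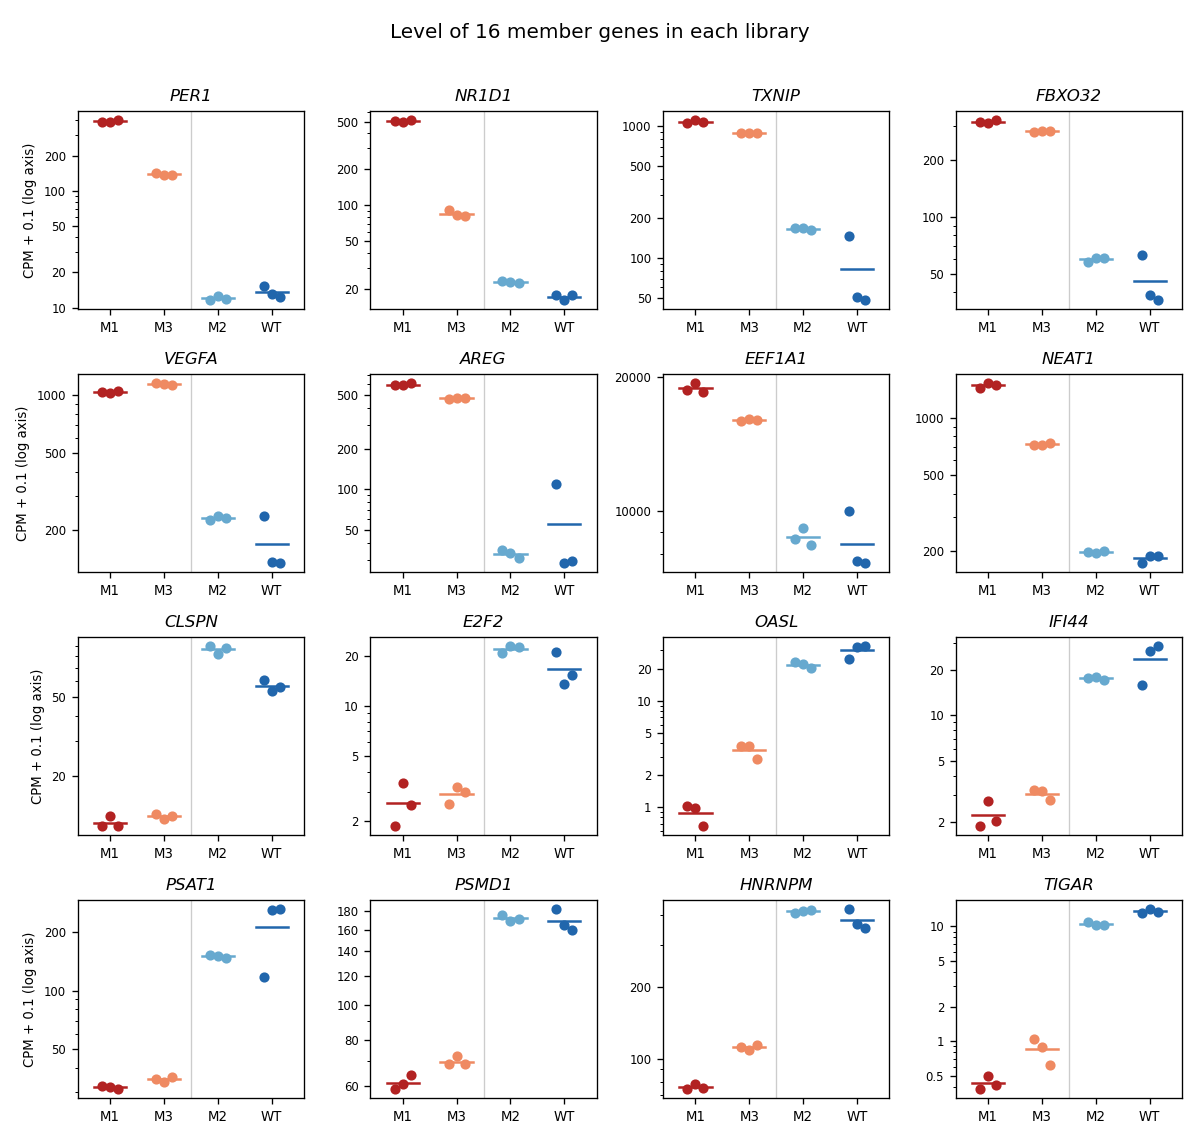
CPM plus 0.1 on a log axis for 16 member genes, with a point for each library and a line at the mean of each group of 3. M1, M3, M2 and WT are mutation 1, mutation 3, mutation 2 and wild type, and the grey line divides the 2 sets. The top 8 genes are higher and the bottom 8 lower with mutations 1 and 3, and PER1 and NR1D1 show the step between mutation 1 and mutation 3.

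Gene groups were described with 42 lists, and 3 more (circadian clock, FOXO targets and translation factors with TOP mRNAs) were added after values had been seen. No list was tested. Each count stands beside the 17.6% of all genes tested that were higher and the 18.6% that were lower.

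Genes of DNA replication formed the most one-sided list. Entry into S phase depends on E2F factors, which switch on cyclin E, the MCM helicase that unwinds DNA, and the enzymes that make DNA and its nucleotides. Of 47 such genes tested, 42 were lower with mutations 1 and 3, none was higher and 5 (CDT1, ORC1, ORC6, POLA1 and POLE) overlapped between the sets. CLSPN, a checkpoint adaptor at the replication fork, was at 11.05, 12.4 and 11.1 CPM with mutation 1 and 12.7, 12.1 and 12.4 CPM with mutation 3. It was at 89.6, 82.3 and 87.9 CPM with mutation 2 and 60.7, 53.2 and 56.2 CPM with wild type. E2F2 averaged 2.48 ± 0.77 CPM with mutation 1 and 2.82 ± 0.35 CPM with mutation 3, against 22.2 ± 1.2 CPM with mutation 2 and 16.7 ± 4.0 CPM with wild type (SD, n = 3 each). PCNA, the sliding clamp of the polymerases, averaged 63.9 ± 2.2 CPM with mutation 1 and 80.9 ± 2.8 CPM with mutation 3, against 265 ± 1.9 CPM with mutation 2 and 271 ± 10 CPM with wild type. PCNA, CDC6 and UHRF1 were chosen after their values were seen. CCNE2, the cyclin with the largest gap, was at 0.704 to 2.09 CPM with mutations 1 and 3 and 10.4 to 14.4 CPM in the other 6 libraries, and 37.1% of its exonic bases lie opposite another gene's exons.

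Promoters of 40 of these 47 genes were found among 27305 promoters of 300 bases from RefSeq (GRCh38.p14), and 22 of the 40 (55.0%) held an E2F motif, TTTCGCGC, TTTGGCGC, TTTCCCGC or TTTGCCGC on either strand. The motif was in 908 of all 27305 promoters (3.33%), which include promoters of genes not tested here. The list was made of replication genes, which E2F factors switch on, so a high share follows from the choice of list. Motif shares here and for the lists below cover members and other genes of a list alike. They describe the lists and say nothing about membership. The stretches that follow show it in 5 lower members, in capitals, from 80 bases before the start of transcription to 20 after it, each written 5′ to 3′ on the gene's own strand. They lie at chr1:35769959-35770058 (minus strand) for CLSPN, chr17:40287799-40287898 (plus) for CDC6, chr20:5126603-5126702 (minus) for PCNA, chr1:23531214-23531313 (minus) for E2F2 and chr19:4909421-4909520 (plus) for UHRF1.
CLSPN: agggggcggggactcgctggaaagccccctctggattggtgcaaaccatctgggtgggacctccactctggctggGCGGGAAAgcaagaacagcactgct
CDC6: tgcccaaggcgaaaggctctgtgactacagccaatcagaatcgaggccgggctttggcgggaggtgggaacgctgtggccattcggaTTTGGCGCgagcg
PCNA: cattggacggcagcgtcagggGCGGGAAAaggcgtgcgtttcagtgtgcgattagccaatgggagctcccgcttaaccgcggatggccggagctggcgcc
E2F2: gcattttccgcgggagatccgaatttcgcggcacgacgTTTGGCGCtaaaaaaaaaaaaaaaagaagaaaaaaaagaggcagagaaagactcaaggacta
UHRF1: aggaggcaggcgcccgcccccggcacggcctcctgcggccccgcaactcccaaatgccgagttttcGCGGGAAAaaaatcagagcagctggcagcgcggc
The motif lies within 59 bases of the start in each, at base -5 in CLSPN, 8 in CDC6, -59 in PCNA, -42 in E2F2 and -14 in UHRF1. A match describes the letters and was not tested as a binding site. The simple CCAAT box was in 57.5% of the replication promoters and 35.7% of all promoters. Matched promoters covered 1899 of the 2662 higher and 2182 of the 2811 lower members, too few for a share over all members.

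Lists next to replication held smaller shares of members. Of 38 DNA repair genes, 20 were lower and 3 (XRCC1, ATM and RAD50) were higher, although 79.7% of the exonic bases of RAD50 lie in exons of other genes. RBBP8, which starts resection of broken ends, averaged 26.7 ± 1.5 CPM with mutation 1 and 35.1 ± 0.8 CPM with mutation 3, against 95.7 ± 2.5 CPM with mutation 2 and 72.2 ± 1.9 CPM with wild type. Of 38 genes of G2 and mitosis, 14 were lower and 1 was higher, and the lower ones had small gaps of at most 1.39-fold, the value for the kinesin CENPE. CDC25B, a phosphatase that starts mitosis, was the higher one, at 667 ± 9.7 CPM with mutation 1 and 399 ± 4.8 CPM with mutation 3, against 224 ± 12 CPM with mutation 2 and 270 ± 7.0 CPM with wild type. The CHR element TTTGAA, known from mitotic promoters, was in 19 of 31 matched promoters of the G2 and mitosis list (61.3%), in 2.5% of the replication promoters and in 15.4% of all promoters. The median log2 ratio of the set means was -1.10 for the replication list and -0.30 for the list of G2 and mitosis. CCND1, the G1 cyclin D1, was also lower, at 224 to 275 CPM with mutations 1 and 3, against 706 to 743 CPM with mutation 2 and 419 to 729 CPM with wild type.

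The clock genes beyond PER1 were mostly higher. In this oscillator CLOCK and BMAL1 drive the PER, CRY and NR1D genes, whose products repress them in turn. Of 22 clock genes tested, 13 were higher and 4 were lower, among them TIMELESS and CRY1, while CLOCK, BMAL1, NPAS2, NR1D2 and CSNK1D overlapped between the sets. NR1D1, a nuclear receptor that represses BMAL1, was at 510, 501 and 514 CPM with mutation 1 and 91.4, 82.7 and 81.2 CPM with mutation 3. It was at 22.9, 22.6 and 22.5 CPM with mutation 2 and 17.8, 15.9 and 17.5 CPM with wild type. DBP, an activator that binds D-boxes, averaged 118 ± 0.6 CPM with mutation 1 and 49.8 ± 0.8 CPM with mutation 3, against 6.01 ± 1.2 CPM with mutation 2 and 8.27 ± 6.5 CPM with wild type, and was chosen after its values were seen. In both genes every library of mutation 1 lay above every library of mutation 3. The PER1 promoter from 190 bases before to 10 bases after the start (chr17:8152395-8152594, minus strand) is shown because it holds an E-box, CACGTG, at base -173 and a D-box, TTATGCAA, at base -30, both in capitals.
PER1: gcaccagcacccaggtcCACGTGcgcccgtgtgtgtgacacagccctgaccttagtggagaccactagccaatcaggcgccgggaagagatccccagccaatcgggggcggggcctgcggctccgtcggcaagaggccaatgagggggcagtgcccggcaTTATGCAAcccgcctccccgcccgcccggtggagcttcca
An E-box was in 6 of 19 matched clock promoters (31.6%) and 7.43% of all promoters. A D-box, searched as TTATGCAA, TTACGTAA or TTATGTAA on both strands, was in 3 of the 19 (15.8%) and 1.89% of all promoters.

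FOXO targets, genes that FOXO factors switch on when insulin and growth-factor signalling is low, were higher in 15 of 25 cases and lower in 2. KLHL24 averaged 82.8 ± 4.4 CPM with mutation 1 and 67.8 ± 2.1 CPM with mutation 3, against 12.1 ± 0.9 CPM with mutation 2 and 15.6 ± 1.9 CPM with wild type. TXNIP and FBXO32, described above, are on this list, as are FOXO3, FOXO4, IRS2 and INSR, all higher, the last 4 chosen after their values were seen. CITED2 and CAT were the lower ones, with gaps of 1.12 and 1.07. KLF9, a factor induced by glucocorticoid and held on the miR-200 target list, was at 52.5, 50.7 and 49.2 CPM with mutation 1 and 29.8, 29.4 and 33.1 CPM with mutation 3, against 2.60, 2.08 and 2.26 CPM with mutation 2 and 4.46, 6.98 and 7.25 CPM with wild type.

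Hypoxia genes, the targets of HIF factors, were higher in 13 of 27 cases and lower in 1, ANGPTL4. Without wild-type replicate 1, 18 were higher and 1 was lower, and with library totals 11 and 1. BHLHE40, a repressor that is also a clock gene, averaged 767 ± 12 CPM with mutation 1 and 354 ± 4.1 CPM with mutation 3, against 54.4 ± 1.3 CPM with mutation 2 and 80.2 ± 57 CPM with wild type. Glycolysis genes were higher in 9 of 26 cases and lower in 2. Without wild-type replicate 1 these counts were 14 and 2, and with library totals 6 and 3. SLC2A3, a glucose transporter, was at 295, 295 and 301 CPM with mutation 1 and 197, 189 and 194 CPM with mutation 3, against 29.3, 26.8 and 29.8 CPM with mutation 2 and 46.99, 33.6 and 33.3 CPM with wild type. Lysosome and autophagy genes were higher in 10 of 34 cases and lower in 3. Without wild-type replicate 1 these counts were 17 and 4, and with library totals 7 and 3. Their median log2 level, after subtracting each gene's mean, was 0.40 to 0.43 with mutation 1 and 0.05 to 0.08 with mutation 3. It was 0.04 in wild-type replicate 1. NPC1, which exports cholesterol out of lysosomes, averaged 315 ± 9.4 CPM with mutation 1 and 231 ± 4.5 CPM with mutation 3, against 95.7 ± 2.5 CPM with mutation 2 and 104 ± 10 CPM with wild type.

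**Figure D3:**
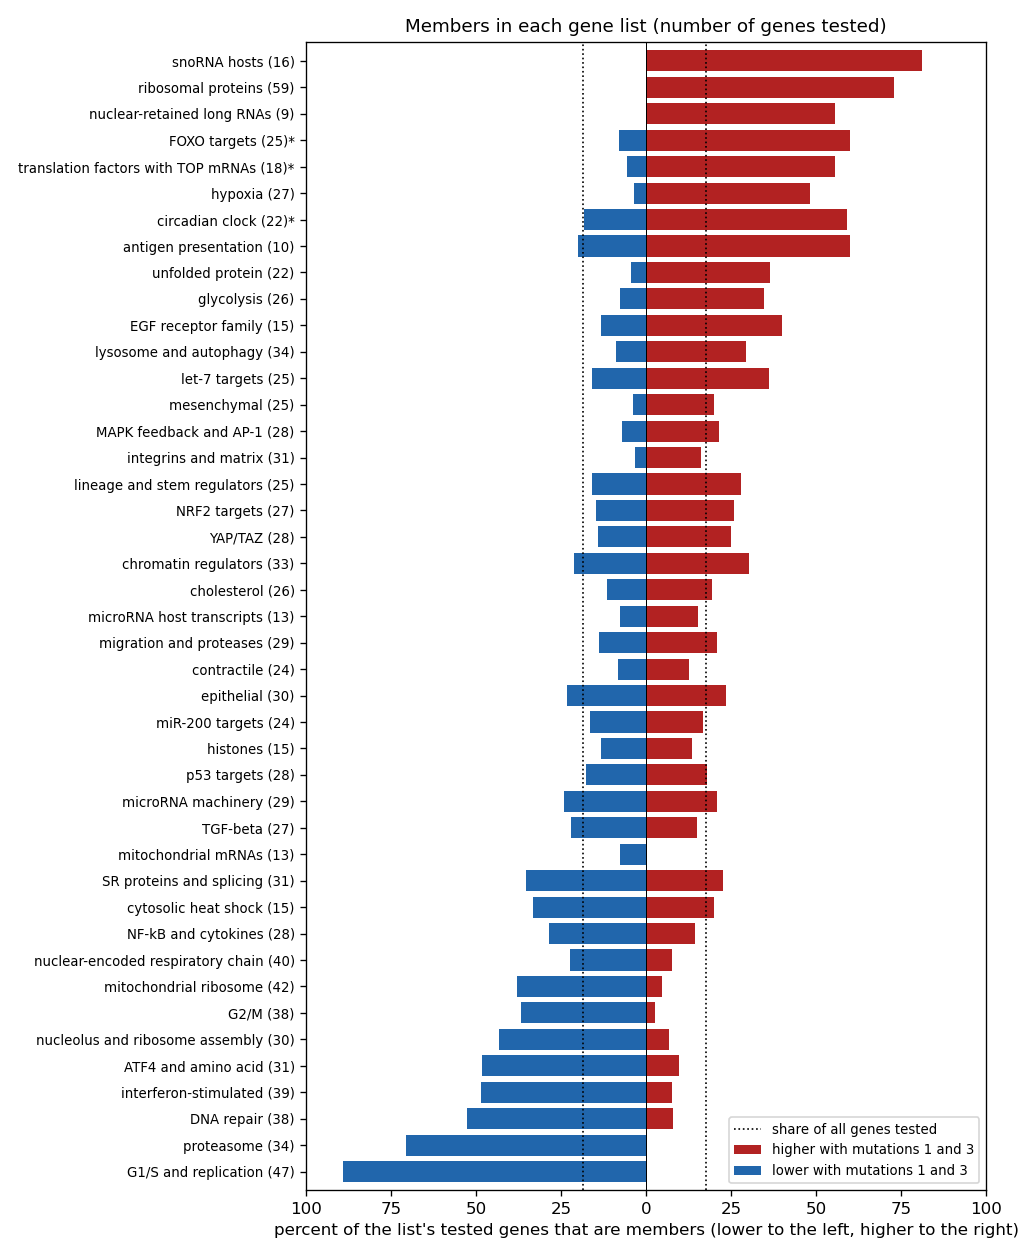
Share of the tested genes of each list that were higher (red bars, to the right) or lower (blue bars, to the left) with mutations 1 and 3, in percent, with the number of genes tested in brackets. Dotted lines mark the 17.6% and 18.6% of all genes tested, and an asterisk marks the 3 lists added after values were seen. Replication (42 of 47 lower) and the proteasome (24 of 34 lower) stand at the bottom, and snoRNA hosts (13 of 16 higher) and ribosomal proteins (43 of 59 higher) at the top.

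Genes for the parts of the cytosolic ribosome were higher as a group, by small amounts. Messenger RNAs of ribosomal proteins and of several translation factors, and many RNAs that carry small nucleolar RNAs (snoRNAs) in their introns, begin with a run of pyrimidines called a TOP motif, through which mTOR controls their translation. Of 59 ribosomal protein genes tested, 43 were higher and none was lower, and the largest gap among them was 1.37-fold. RPL12 averaged 1306 ± 48 CPM with mutation 1 and 1106 ± 9.2 CPM with mutation 3, against 572 ± 16 CPM with mutation 2 and 766 ± 30 CPM with wild type (SD, n = 3 each). With library totals in place of TMM, 20 were higher and 1 was lower, so this count rests on the scaling. Ribosomal protein genes have many near-identical pseudogene copies, and fragments that map to several places may have been lost or misplaced.

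Of 18 translation factors with such messenger RNAs, 10 were higher and 1, EIF3K, was lower. EEF1A1, the factor that brings transfer RNAs to the ribosome, was at 18726, 19332 and 18536 CPM with mutation 1 and 15938, 16063 and 16026 CPM with mutation 3. It was at 8652, 9170 and 8402 CPM with mutation 2 and 10004, 7738 and 7640 CPM with wild type. Of 16 snoRNA host genes, 13 were higher and none was lower, with larger gaps. SNHG16 averaged 133 ± 5.2 CPM with mutation 1 and 114 ± 0.8 CPM with mutation 3, against 38.9 ± 0.7 CPM with mutation 2 and 29.5 ± 0.8 CPM with wild type, and it shares 33.4% of its exonic bases with other genes. The starts of 4 of these members, from 8 bases before the annotated start to 20 after it, are shown with the pyrimidine run nearest the start in capitals. They were picked from higher members that have such a run, so its presence in all 4 follows from the choice. In RPL4 the run begins after the annotated start and not at it. RPL4 lies at chr15:66504836-66504863 (minus strand), EEF2 at chr19:3985444-3985471 (minus), TAF1D at chr11:93741476-93741503 (minus) and SNHG12, chosen after its values were seen, at chr1:28581854-28581881 (minus).
RPL4: ggagtggtaagcaCTTCCTTTTCCTgtg
EEF2: tcagcgttCTCTTCCgccgtcgtcgccg
TAF1D: tagccaaCCCTTTTCTTCCgcacggttg
SNHG12: ttcagcgCCCTTTCTCCCCgccgcattc
A run of this kind, a C followed by at least 5 pyrimidines and beginning within 5 bases of the start, was in 4 of 13 matched snoRNA host promoters (30.8%) and in 11.05% of all promoters. Too few ribosomal protein and translation factor promoters were matched to give a share.

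Genes of the machinery that builds ribosomes were more often lower than higher. Of 30 genes of the nucleolus and ribosome assembly, 13 were lower and 2 were higher. The shift of this list lay mainly with mutation 1. Its median log2 level, after subtracting each gene's mean, was -0.42 to -0.49 with mutation 1 and -0.01 to -0.003 with mutation 3. It was 0.005 in wild-type replicate 1. In the test of mutation 1 over mutation 3 described below, 20 of the 30 were called lower and none higher. NCL, the abundant nucleolar protein nucleolin, averaged 437 ± 8.1 CPM with mutation 1 and 548 ± 10 CPM with mutation 3, against 833 ± 20 CPM with mutation 2 and 799 ± 44 CPM with wild type. Of 42 mitochondrial ribosome genes, 16 were lower and 2 were higher, and with library totals 23 were lower and none was higher. Without wild-type replicate 1, 16 were lower and 5 were higher. The proteasome, which degrades tagged proteins, had 24 of 34 genes lower and none higher. PSMD1, its largest regulatory subunit, was at 58.5, 60.5 and 63.9 CPM with mutation 1 and 68.5, 72.1 and 68.5 CPM with mutation 3, against 176, 169 and 171 CPM with mutation 2 and 182, 165 and 159 CPM with wild type. The ETS motif CCGGAAGT, searched on both strands, was in 7 of 29 matched proteasome promoters (24.1%) and in 4.44% of all promoters.

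Interferon-stimulated genes, which cells switch on against viruses, were lower in 19 of 39 cases and higher in 3. OASL, a member of the oligoadenylate synthetase family, was at 0.915, 0.873 and 0.559 CPM with mutation 1 and 3.63, 3.66 and 2.74 CPM with mutation 3. It was at 23.4, 22.2 and 20.3 CPM with mutation 2 and 25.004, 32.3 and 32.7 CPM with wild type. IFI44 averaged 2.10 ± 0.46 CPM with mutation 1 and 2.96 ± 0.25 CPM with mutation 3, against 17.5 ± 0.41 CPM with mutation 2 and 23.5 ± 6.9 CPM with wild type. The IFI44 promoter from 80 bases before to 20 after the start (chr1:78649709-78649808, plus strand) is shown because the core of the interferon-stimulated response element begins at base -18, in capitals.
IFI44: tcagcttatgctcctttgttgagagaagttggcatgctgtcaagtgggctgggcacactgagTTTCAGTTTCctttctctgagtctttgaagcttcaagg
That element was in 3.65% of all promoters, and too few promoters of this list were matched to give its share. The 3 higher genes were GBP2, STAT2 and IRF9, and STAT2 and IRF9 are subunits of the factor that binds the element. STAT2 was at 139 to 147 CPM with mutation 1 and 124 to 134 CPM with mutation 3, against 54.4 to 56.1 CPM with mutation 2 and 45.5 to 89.3 CPM with wild type. IRF9 shares 48.4% of its exonic bases with another gene. Among 10 antigen presentation genes, 6 were higher and 2, CIITA and PSMB10, were lower, and with library totals 4 and 2. CIITA had a gap of 1.20 and PSMB10 of 1.003, at the edge of the rule. They share 23.4% and 34.8% of their exonic bases with other genes. HLA-B averaged 353 ± 16 CPM with mutation 1 and 220 ± 2.2 CPM with mutation 3, against 166 ± 6.5 CPM with mutation 2 and 59.1 ± 51 CPM with wild type. HLA genes resemble each other closely, so their separate levels are uncertain.

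**Figure D4:**
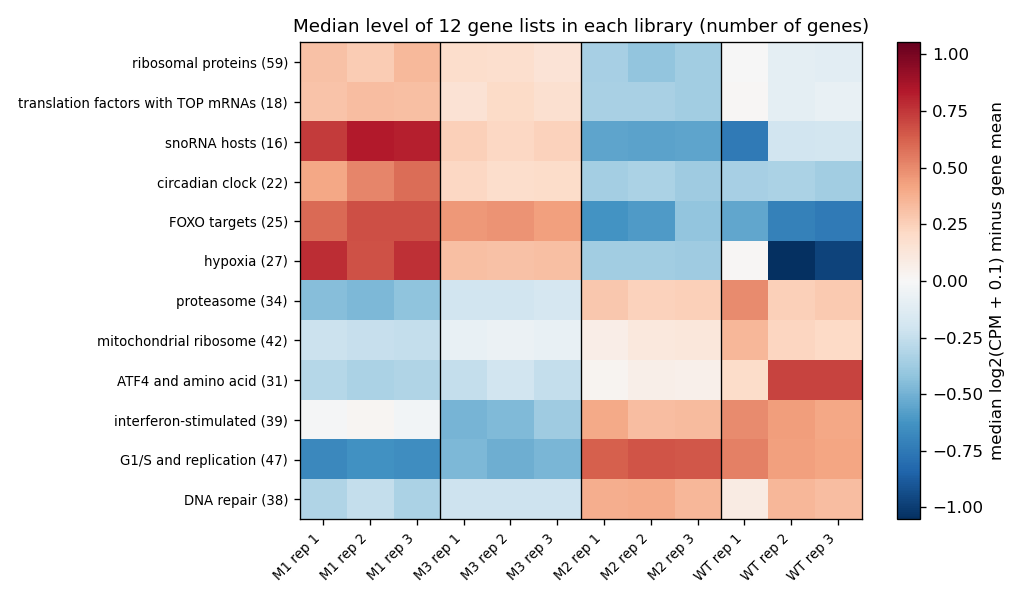
Median log2 level of 12 gene lists in each library after subtracting each gene's mean over the 12 libraries, with the number of genes tested in brackets. Columns are libraries of mutation 1, mutation 3, mutation 2 and wild type, and red is above and blue below the gene's mean. Replication genes are blue in all libraries of mutations 1 and 3 and red in the others, and for hypoxia genes wild-type replicate 1 differs from the other wild-type libraries.

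Targets of ATF4, the factor of amino acid stress, were lower in 15 of 31 cases and higher in 3. PSAT1, an enzyme of serine synthesis, was at 32.4, 32.0 and 31.0 CPM with mutation 1 and 34.9, 33.9 and 35.9 CPM with mutation 3, against 153, 150 and 147 CPM with mutation 2 and 117, 259 and 262 CPM with wild type. Mutations 1 and 3 lay close together, and wild-type replicate 1 lay below the other wild-type libraries. CHAC1, a glutathione-degrading enzyme, averaged 0.379 ± 0.33 CPM with mutation 1 and 0.931 ± 0.22 CPM with mutation 3, against 6.60 ± 0.67 CPM with mutation 2 and 18.3 ± 8.6 CPM with wild type. The higher ones were the transcription factors CEBPB and ATF3 and the mTOR inhibitor DDIT4, which other stresses induce as well, and 41.2% of the exonic bases of DDIT4 lie opposite its antisense gene. Genes of the unfolded protein response of the endoplasmic reticulum were higher in 8 of 22 cases and lower in 1, and with library totals in 3 and 1. Their median log2 level, after subtracting each gene's mean, was 0.31 to 0.40 with mutation 1 and -0.06 to -0.05 with mutation 3. It was -0.02 in wild-type replicate 1. Cytosolic heat shock genes were lower in 5 of 15 cases and higher in 3, and with library totals in 6 and 1.

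RNA processing genes lay on both sides. Of 31 SR proteins and splicing factors, 11 were lower and 7 were higher, and with library totals 18 and 7. HNRNPM, a splicing regulator, was at 74.2, 77.9 and 75.02 CPM with mutation 1 and 112, 109 and 114 CPM with mutation 3, against 408, 417 and 418 CPM with mutation 2 and 423, 365 and 352 CPM with wild type. CLK1 and CLK4, kinases of SR proteins, were higher, and CLK1 averaged 222 ± 8.4 CPM with mutation 1 and 120 ± 4.4 CPM with mutation 3, against 41.5 ± 1.1 CPM with mutation 2 and 39.6 ± 8.9 CPM with wild type. Of 9 nuclear-retained long RNAs, 5 were higher and none was lower. NEAT1, the scaffold RNA of paraspeckles, was at 1440, 1518 and 1489 CPM with mutation 1 and 724, 718 and 737 CPM with mutation 3, against 197, 195 and 200 CPM with mutation 2 and 172, 188 and 188 CPM with wild type. MALAT1 was at 2334 to 2454 CPM with mutation 1 and 3114 to 3181 CPM with mutation 3, against 805 to 866 CPM with mutation 2 and 442 to 870 CPM with wild type.

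Genes of the microRNA pathway lay on both sides. Of 29 machinery genes tested, 7 were lower and 6 were higher, and with library totals 9 and 3. DGCR8, the partner of Drosha in the nuclear cut, was at 4.43, 3.83 and 4.31 CPM with mutation 1 and 19.2, 20.4 and 20.3 CPM with mutation 3, against 51.9, 57.0 and 56.6 CPM with mutation 2 and 35.7, 61.2 and 61.0 CPM with wild type. TARBP2, a partner of Dicer, averaged 8.99 ± 0.88 CPM with mutation 1 and 12.2 ± 1.7 CPM with mutation 3, against 22.6 ± 0.98 CPM with mutation 2 and 37.6 ± 8.9 CPM with wild type. PAN2, a deadenylase, was the higher member with the largest gap there. Of 25 let-7 targets, 9 were higher and 4 were lower, and with library totals 4 and 4. Of 24 miR-200 targets, 4 were higher and 4 were lower, and of 13 microRNA host transcripts, 2 were higher and 1 was lower, with 1 and 1 under library totals.

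Genes of cell identity and movement were listed because of the mesenchymal fates in the study's title. Of 25 mesenchymal genes, 5 were higher, 1 was lower and 19 overlapped between the sets. The counts higher and lower were 3 and 1 under library totals and 8 and 1 without wild-type replicate 1. SNAI1, a repressor of E-cadherin, averaged 19.5 ± 0.96 CPM with mutation 1 and 6.80 ± 0.28 CPM with mutation 3, against 1.53 ± 0.44 CPM with mutation 2 and 1.25 ± 1.1 CPM with wild type. Of 30 epithelial genes, 7 were higher and 7 were lower, with 11 and 7 without wild-type replicate 1. DSP and CLDN4 were higher, and KRT80 was lower, at 139 ± 8.1 CPM with mutation 1 and 151 ± 2.0 CPM with mutation 3, against 399 ± 8.4 CPM with mutation 2 and 332 ± 16 CPM with wild type. With library totals, migration genes and proteases counted 4 higher and 6 lower and contractile genes 2 and 3, where all genes also shifted to 12.5% higher and 23.9% lower. With TMM, integrins and matrix genes were higher in 5 of 31 cases and lower in 1 (3 and 1 with library totals), contractile genes higher in 3 of 24 and lower in 2, and migration genes and proteases higher in 6 of 29 and lower in 4. Across the lists of this paragraph 12.5% to 23.3% of genes were higher, near the 17.6% of all genes tested. The shares lower ran from 3.23% to 23.3%, against 18.6%.

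Signalling lists were mixed as well. The EGF receptor family was higher in 6 of 15 cases and lower in 2, MAPK feedback and AP-1 genes higher in 6 of 28 and lower in 2, and YAP/TAZ targets higher in 7 of 28 and lower in 4. TGF-beta genes were lower in 6 of 27 cases and higher in 4, and without wild-type replicate 1 in 7 and 11. With library totals, YAP/TAZ targets counted 4 higher and 6 lower, and TGF-beta genes 2 and 8. On that scaling the EGF receptor family counted 4 and 3, and MAPK feedback and AP-1 genes 5 and 2. Without wild-type replicate 1, YAP/TAZ targets counted 9 higher and 7 lower. BMP4, a growth factor of the TGF-beta family, was at 39.2 to 41.6 CPM with mutation 1 and 78.9 to 83.9 CPM with mutation 3, against 261 to 270 CPM with mutation 2 and 299 to 334 CPM with wild type. NF-kB and cytokine genes were lower in 8 of 28 cases and higher in 4, p53 targets higher in 5 of 28 and lower in 5, and NRF2 targets higher in 7 of 27 and lower in 4. FTL, the light chain of ferritin, averaged 7595 ± 110 CPM with mutation 1 and 4002 ± 44 CPM with mutation 3, against 1558 ± 7.0 CPM with mutation 2 and 1821 ± 666 CPM with wild type. Lineage and stem regulators were higher in 7 of 25 cases and lower in 4, chromatin regulators higher in 10 of 33 and lower in 7 (8 and 11 with library totals), histones higher in 2 of 15 and lower in 2, and cholesterol genes higher in 5 of 26 and lower in 3. Nuclear genes of the respiratory chain were lower in 9 of 40 cases and higher in 3, and in 9 and 8 without wild-type replicate 1. Of 13 mitochondrial messenger RNAs only MT-ND3 was a member, while without wild-type replicate 1, the library with the smallest mitochondrial share of counts, 5 were lower.

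Members of a set need not be alike within it, and the rule did not use the difference between mutation 1 and mutation 3. This was tested with edgeR's quasi-likelihood test over all 15094 genes, with Benjamini-Hochberg adjustment and a call at adjusted p under 0.05. Of the 2662 higher members, 857 (32.2%) were called higher and 174 (6.54%) lower with mutation 1 than with mutation 3, against 20.2% and 22.5% of all genes. Of the 2811 lower members, 196 (6.97%) were called higher and 1110 (39.5%) lower. The median log2 fold change was 0.18 for higher members, -0.24 for lower members and -0.01 for all genes. Among members called between the 2 mutations, mutation 1 was mostly the one farther from mutation 2 and wild type. The fit shares its estimate of the spread over all 12 libraries, and without wild-type replicate 1 1418 and 401 higher members and 357 and 1432 lower members were called, against 32.9% higher and 33.6% lower of all genes. Within lists, 17 of the 43 higher ribosomal protein genes and 9 of the 13 higher snoRNA hosts were called higher with mutation 1 than with mutation 3, and none lower. Of the 24 lower proteasome genes, 11 were called lower with mutation 1 and none higher, while the 42 lower replication genes were split, with 17 called lower and 9 higher.

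DUSP1, a phosphatase that switches off MAP kinases, differed most among higher members. It was at 249, 252 and 257 CPM with mutation 1 and 22.6, 21.7 and 24.5 CPM with mutation 3, a log2 fold change of 3.46 ± 0.10 (SE, edgeR, adjusted p = 8.55e-09). NR1D1 had a log2 fold change of 2.58 ± 0.06 (edgeR, adjusted p = 5.34e-09), PER1 of 1.51 ± 0.07 (adjusted p = 2.14e-07), CEBPB of 1.65 ± 0.06 (adjusted p = 2.23e-08) and NEAT1 of 1.03 ± 0.05 (adjusted p = 2.61e-07). Clock genes held 9 of 13 higher members called higher with mutation 1 and none called lower. EIF4A1 (3.04 ± 0.33), FOSL2-AS1 (3.27 ± 0.23) and LIF-AS2 (2.66 ± 0.43) were also called, although 48.6% of the exonic bases of EIF4A1 lie in exons of other genes. SNHG16 (0.22 ± 0.05), GBP2 (0.83 ± 0.05), KLF9 (0.72 ± 0.14) and FTL (0.92 ± 0.19) were called with smaller differences.

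The lower members with the largest differences between the 2 mutations mostly had mutation 1 below mutation 3. CSF3, the granulocyte colony-stimulating factor, was at 0.211, 0.269 and 0.239 CPM with mutation 1 and 3.25, 3.86 and 3.93 CPM with mutation 3, a log2 fold change of -3.89 ± 0.35 (SE, edgeR, adjusted p = 1.19e-05). MED18, a Mediator subunit, was at 1.83, 1.14 and 1.52 CPM with mutation 1 and 13.3, 13.7 and 14.3 CPM with mutation 3 (-3.20 ± 0.16, adjusted p = 2.25e-07). The libraries did not overlap for either gene. DDX28 (-3.30 ± 0.31), NAT1 (-4.90 ± 0.76), DGCR8 (-2.25 ± 0.20), OASL (-2.08 ± 0.21), PRMT6 (-1.90 ± 0.27), CDC25A (-1.46 ± 0.10), BMP4 (-1.01 ± 0.06), FAM111B (-0.88 ± 0.11) and HNRNPM (-0.56 ± 0.07) were called lower with mutation 1 as well. OASL was not typical of its list: of the 19 lower interferon-stimulated genes, 7 were called higher and 4 lower with mutation 1 than with mutation 3, and of all 39, 15 and 5. SLCO1B3 had no count in any library of mutation 1 and averaged 1.16 ± 0.14 CPM with mutation 3, and 54.5% of its exonic bases lie in exons of another gene. MT-ND3, a mitochondrially encoded subunit of complex I, was at 46.996, 48.8 and 51.5 CPM with mutation 1 and 452, 429 and 433 CPM with mutation 3 (-3.16 ± 0.09, adjusted p = 8.55e-09), where mitochondrial genes as a whole took the smaller share of counts given above with mutation 1. ATOH8, a lower member, went the other way at 1.13 CPM or less (2.75 ± 0.92, edgeR, adjusted p = 0.0327), and it was no longer called without mutation 1 replicate 1 or 3 or without mutation 3 replicate 1 or 3.

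**Figure D5:**
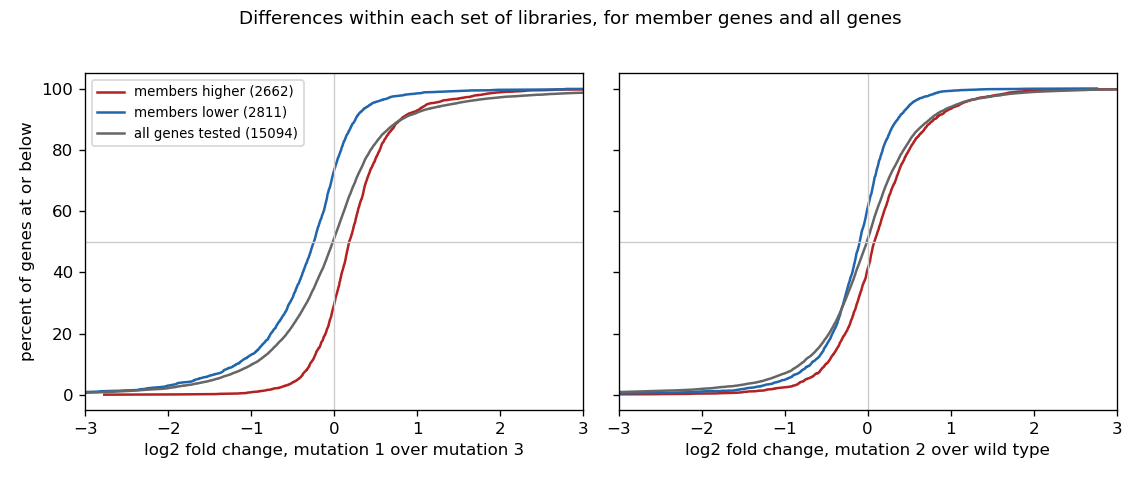
Cumulative share of genes, in percent, at or below each log2 fold change of mutation 1 over mutation 3 (left) and mutation 2 over wild type (right), for the 2662 higher members, the 2811 lower members and all 15094 genes tested. Differences beyond 3 on the log2 scale lie outside the axes. Higher members are shifted to the right and lower members to the left of all genes, more so on the left (medians 0.18 and -0.24) than on the right (0.08 and -0.10).

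The other set held differences too. Between mutation 2 and wild type, 535 higher members were called higher and 374 lower, and 324 lower members were called higher and 677 lower, against 16.9% and 20.1% of all genes. The median log2 fold change was 0.08 for higher members and -0.10 for lower members. Without wild-type replicate 1 the calls were 1112 and 648 among higher members and 654 and 1268 among lower members, against 33% and 34.9% of all genes. By these medians mutation 2 lay slightly nearer than wild type to mutations 1 and 3. The members were chosen with the wide wild-type spread included, also for the fit without wild-type replicate 1. These medians therefore depend on that choice, and no conclusion is drawn from them. Gene lists went both ways. Ribosomal protein genes did not follow: of all 59 tested, 42 were called lower and 1 higher with mutation 2 than with wild type. Their median log2 level, after subtracting each gene's mean, was -0.35 to -0.41 with mutation 2 and -0.01 to -0.11 with wild type. Of 47 replication genes, 15 were called higher and 4 lower, and of 30 nucleolus and ribosome assembly genes, 13 and 1, so these did not follow either. Proteasome genes (2 called higher and 13 lower) and ATF4 targets (1 and 15) did follow.

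TNS4, a focal adhesion protein, was at 0.704, 0.973 and 1.13 CPM with mutation 2 and 13.1, 51.0 and 53.4 CPM with wild type, a log2 fold change of -5.36 ± 0.55 (SE, edgeR, adjusted p = 5.96e-05). Both mutation 1 and mutation 3 had it at or below 0.479 CPM, so wild type stood alone. FLRT2 (-4.08 ± 0.75), ATOH8 (-4.05 ± 0.45), TMEM156 (-3.36 ± 0.37) and KYNU (-2.97 ± 0.42) were lower members that also averaged highest with wild type. Wild type did not stand alone for TMEM156 and KYNU. With mutation 2 they averaged 2.14 and 5.89 CPM, against at most 0.250 and 0.626 CPM with mutations 1 and 3. FLRT2 was at 3.35 CPM in wild-type replicate 1, against 36.6 and 41.9 CPM in the other wild-type libraries. HOOK1, an adaptor of dynein and a higher member, was at 2.46, 2.72 and 3.72 CPM with mutation 2 and 0.459, 0.391 and 0.323 CPM with wild type (2.91 ± 0.25, adjusted p = 2.00e-05), which placed mutation 2 between wild type and the other mutations. SH3D21 (1.96 ± 0.15) had this order as well, and so had ATP6V1B1 (2.15 ± 0.46) and FHIP1A (2.03 ± 0.54), whose log2 fold changes were 3.37 and 3.73 without wild-type replicate 1. Neither was called in a fit of the 6 libraries of mutation 2 and wild type alone, and ATP6V1B1 shares 62.4% of its exonic bases with a neighbour. ZNF334 (-4.12 ± 0.41), KLF9 (-1.43 ± 0.18), GBP2 (-0.77 ± 0.05) and RPL12 (-0.42 ± 0.05), higher members, were lowest with mutation 2, and SAMD5 (2.02 ± 0.30) and CLSPN (0.61 ± 0.07), lower members, were highest with it.

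Higher and lower members also differed in features that the rule did not use, given here as descriptions. Protein-coding genes made up 83.8% of higher members, 93.1% of lower members and 84.6% of all genes tested that are in GENCODE v29, and long noncoding RNAs made up 11.04%, 5.28% and 10.2%. Higher protein-coding members had a median of 9 exons in their longest transcript, lower members 7 and all genes 8. Genes with a single exon were 2.10% of higher, 4.20% of lower and 3.34% of all protein-coding genes. Of genes with 15 or more exons 21.6% were higher and 16.4% lower, and of genes with 4 or fewer exons 13.9% were higher and 22.97% lower. By mean level, 26.3% of the most abundant protein-coding genes (70.7 CPM or more) were higher and 18.1% lower, and of the least abundant ones (8.19 CPM or less) 9.68% were higher and 16.01% lower. The part of depth in this difference was not tested.

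Members were spread unevenly over the chromosomes. On chromosome 13, 6.996% of 243 genes tested were higher and 25.1% lower, and on chromosome 14, 7.30% of 452 were higher and 23.7% lower. Chromosomes 6 and 18 showed the opposite, with 23.4% and 22.0% higher and 10.6% and 11.01% lower. Some windows of neighbouring genes held many members of 1 direction. Of 20 consecutive tested genes at chr6:26158146-27406964, 11 were higher and none was lower, among them BTN3A2, BTN2A2, BTN3A1, BTN3A3 and BTN2A1, butyrophilins that present signals to gamma-delta T cells. At chr1:205767986-207795513, 11 of 20 were higher, among them IL20, IL24, CD55 and CD46, and 2 were lower. At chr14:77672404-90275429, 13 of 20 were lower and 1 was higher, and at chr10:123008979-126670446, 12 of 20 were lower and none higher. These windows were picked as those with most members, so their counts are not independent of the choice.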

How the data were processed

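Poly(A) RNA of 12 libraries (4 groups of 3) was counted per gene, and the deposited values are raw counts of read pairs. Per the file headers, the authors counted with featureCounts 2.0.6 without strand, summing exons by gene ID at a mapping quality of at least 10 on hg38 with an Ensembl gene track, so genes with overlapping exons or near-identical copies are uncertain. Read trimming with cutadapt 1.9.1, quality reports with FastQC 0.11.8, and the programs STAR, SAMtools and DESeq2 appear in the submitters' processing notes, where STAR, SAMtools and DESeq2 have versions not given in the sources used here. Symbols were found for 56105 of 64252 IDs, which held 99.6% of counts, and positions come from GENCODE v29 (GRCh38).

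CPM with TMM factors set the members. Tests between mutations 1 and 3 and between mutation 2 and wild type used edgeR 4.0.16 in R 4.3.3 (quasi-likelihood with robust dispersion, 1 fit of all 12 libraries, genes kept by a minimum count of 10 and total of 15), with Benjamini-Hochberg adjustment and a threshold of 0.05. The scripts were tested on simulated data. Alternatives were DESeq2 1.42.0 size factors and test, library totals alone, no filter, larger gaps, a minimum fold of 2, fits of 6 libraries and leaving out each library. Leaving out wild-type replicate 1 beside the leading counts and 3 of the gene lists were chosen after seeing the data. The genes named were the 15 members with the largest gap in each direction (mean of at least 5 CPM, 0.1 CPM added to both sides of the gap), up to 3 in each direction per list, those at the edge of the rule, and the 5 with the largest called differences in each direction within a set. The other genes named were chosen after their values were seen. The members and lists were chosen with earlier results of these data known.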

Additional observations from a re-analysis of the deposited data

How the results depend on the processing

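The number of members was within 1.5 times of that given under both other scalings, with no filter and without each library in turn (2722 to 3210 higher and 2859 to 3338 lower). With the scaling kept, leaving out a library can only add members, so these counts could show a rise and no loss. A gap of at least 1.5-fold left 671 higher and 737 lower members, and a gap of at least 2-fold left 248 and 250. For mutation 1 over mutation 3, leaving out 1 library gave 673 to 1418 higher members called higher, 101 to 401 called lower, 155 to 357 lower members called higher and 919 to 1432 called lower. For mutation 2 over wild type these ranges were 373 to 1112, 294 to 648, 242 to 654 and 439 to 1268, and each upper end was the fit without wild-type replicate 1. With a fold change of at least 2, the counts in the same order were 177, 20, 25 and 307 for mutation 1 over mutation 3 and 103, 33, 21 and 119 for mutation 2 over wild type. With only the 6 libraries compared, the counts in the same order were 1414, 422, 335 and 1407 for mutation 1 over mutation 3. They were 232, 156, 172 and 260 for mutation 2 over wild type. The cause was not tested. Of counts over gene lists, 194 moved by over 1.5 times and 1336 did not. Of the single genes' fold changes, no direction turned and 9 calls were lost, among them SNHG16 and FHIP1A with no filter and ATOH8 in 5 fits. No paired analysis was possible because the mutant libraries carry no replicate number in their labels. Counts bound the precision at low levels, and a gene with no count in a library may lie below detection.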
